A study of Mus musculus with 48 samples.

Results

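The 16 reporter elements described here lie at 9 mouse loci named for Mmp24, Cacna1s, Ccdc13, Rps6ka2, Afap1, Sdc3, Kcng1, Ust and Ttc28. They comprise 9 elements of the class that the deposited table calls E14 and 7 elements of the class it calls Shadow, out of 11709 elements in all. The E14 elements were chosen as strong in intermediate progenitors with earlier results of these same values known, so their levels and the contrast between cell types are given as a description, with no test. The Shadow elements were taken by coordinates alone, and their own values did not enter the choice. At the Ust and Ttc28 loci no Shadow element has these coordinates in the table.

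Intermediate progenitors (IPC) are the Tbr2-positive daughters of neural stem cells (NSC) in the embryonic cortex, and they divide mostly to give neurons. Enhancers are stretches of DNA that bind transcription factors and raise transcription from a promoter that can be far away. A massively parallel reporter assay reads many such stretches at once, by placing each in a plasmid and setting the RNA it drives against the plasmid DNA in the same cells. The assay shows what the short element does on a plasmid, away from its own chromosome, and does not show which gene it acts on in the genome.

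The plasmid library was electroporated in utero into the somatosensory cortex of C57BL/6JRj embryos on embryonic day (E) 12, 13, 14, 15 or 16. The cells were fixed and sorted 24 h later, at E13 to E17, into Pax6-positive NSC and Tbr2-positive IPC. Both cell types come from the same wild-type strain and carry the same library, and the labels give no difference between the groups but cell type and age. Each cell type had 2 biological samples at E13, E16 and E17 and 3 at E14 and E15, with a DNA and an RNA library from each, 48 libraries in all. The authors combined the samples, so that an element has 1 activity value for a given cell type and age, and these 10 sets of values are called columns here. Each column is a bulk of sorted cells, so more active cells and more activity per cell cannot be told apart. The spread between biological samples and the read depth behind a value are therefore unknown, and the sort was not checked here, since the table holds no gene expression.

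Relative activity below is an element's activity score divided by the median score of the scrambled control sequences in the same column, so that 1 is the level of a typical scrambled sequence. Means over ages are of the log2 of this ratio with a pseudocount of 0.1, set so that 0 is the scrambled median. The SD beside such a mean is over the 5 ages and is not an error between replicates. Single values carry much noise. The highest 2.5% of the scrambled controls began at a relative activity of 2.64 (NSC at E17) to 13.3 (NSC at E13), and in IPC they began at 8.04, 3.03, 5.72, 7.71 and 4.53 from E13 to E17.

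Of the 9 E14 elements, 7 lay within the span of the gene that names them and the others outside it, by the annotation of GRCm38.p6 (the assembly of mm10). Over the whole E14 class, 56.8% of elements fell inside protein-coding gene spans. Exons and introns were not used here. The element at Mmp24 spans positions 155788662 to 155788927 of chromosome 2, 13.5 kb downstream of the gene's start. The element at Sdc3 (chromosome 4, 130805046 to 130805311) is 12.6 kb downstream of the start, that at Afap1 (chromosome 5, 35908110 to 35908375) 14.9 kb, and that at Ccdc13 (chromosome 9, 121822661 to 121822926) 16.7 kb. The element at Cacna1s (chromosome 1, 136103013 to 136103278) is 50.3 kb downstream of the start of that gene. The element at Rps6ka2 (chromosome 17, 7292056 to 7292321) is 122.1 kb from the one start listed for the gene, and that at Ttc28 (chromosome 5, 111270306 to 111270571) is 390.6 kb into its gene. The start nearest to the Ttc28 element is that of Pitpnb, 60.3 kb away. Another gene also has the nearest start for the elements at Rps6ka2 (Tcp10a, 32.5 kb), Kcng1 (Mocs3, 17.7 kb) and Mmp24 (Gm46772, 9.29 kb). No start of Kcng1 was listed. The element named for Ust (chromosome 10, 8615699 to 8615964) lies outside the gene, 97.0 kb upstream of its start. The element named for Kcng1 (chromosome 2, 168248222 to 168248487) lies 11.6 kb outside the span of that gene. None of the 9 lay within 1 kb of a listed start, where 4.72% of the 911 E14 elements with listed starts on their chromosome lay. Their median distance to the nearest start of any gene was 17.7 kb, and that of the E14 class was 24.6 kb. All 9 thus lay away from the listed starts, and a gene name below gives a position, not a target.

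The first 3 loci hold genes of the cell surface and the extracellular matrix. Mmp24 encodes a membrane-bound matrix metalloproteinase that cleaves proteins at the cell surface. In IPC its element reached a relative activity of 16.01 at E13, then 3.31, 2.67 and 5.61 at the next ages, and 20.6 at E17. In NSC it stood at 0.325, 0.986, 1.72, 0.904 and 0.556 at the same ages. The element was thus above every NSC value at each age in IPC, and below the scrambled median in 4 of 5 NSC columns. It was the only one of the 9 whose highest IPC value fell at E17, where 2 of 990 scrambled controls reached it. The mean was 2.69 ± 1.31 (log2, SD over 5 ages) in IPC and -0.31 ± 0.79 in NSC, a difference of 3.0.

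Sdc3 encodes syndecan-3, a transmembrane heparan sulfate proteoglycan that binds growth factors. Its element stood at 36.1, 8.73, 8.66, 2.77 and 3.94 in IPC from E13 to E17. The NSC values were 1.02, 1.25, 2.21, 4.51 and 1.75. IPC activity was highest at E13 and lowest at E16, the age at which NSC activity was highest, and the cell types crossed there. Mean activity was 2.86 ± 1.41 in IPC and 0.84 ± 0.79 in NSC (log2, SD over 5 ages).

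Ust encodes uronyl 2-sulfotransferase, which adds sulfate to the dermatan and chondroitin sulfate chains of the matrix. Relative activity of the element upstream of it was 52.0, 8.91, 5.60, 2.78 and 6.07 in IPC from E13 to E17. In NSC the element stood at 1.77, 1.67, 2.74, 2.17 and 1.04. Every IPC value lay above every NSC value, although the lowest IPC value (E16) and the highest NSC value (E15) nearly met. The means were 2.97 ± 1.57 in IPC and 0.78 ± 0.49 in NSC (log2, SD over 5 ages).

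A further pair of loci holds ion channel genes. Cacna1s encodes the pore-forming subunit of an L-type calcium channel best known from skeletal muscle. Its element had the highest single value of the 9, 80.1 in IPC at E13, followed there by 3.74, 13.3, 3.16 and 4.08 at the later ages. The NSC values were 0.848, 0.526, 3.34, 1.01 and 3.15. At E13, 2 of 986 scrambled controls stood as high as this element in IPC. The NSC columns split, with E15 and E17 at the level of the lowest IPC values and the other ages at or below the scrambled median. Mean activity was 3.02 ± 1.95 in IPC and 0.44 ± 1.1 in NSC (log2, SD over 5 ages). The NSC mean rests on those ages, at 0.14 without E15, 0.16 without E17 and 0.75 without E14.

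Kcng1 encodes a potassium channel subunit that is silent alone and modifies channels of the Kv2 family. The element beside it gave 60.4, 15.7, 3.53, 2.58 and 7.18 in IPC from E13 to E17. Its NSC values were 3.63, 1.39, 2.03, 2.85 and 1.96. At E14 the IPC value of 15.7 was the second highest of 926 E14 elements and above all 991 scrambled controls. This element had the highest IPC mean of the whole E14 class, 3.07 ± 1.81 (log2, SD over 5 ages), and an NSC mean of 1.1 ± 0.51.

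The remaining loci hold genes of signalling, the cytoskeleton and the centrosome. Rps6ka2 encodes RSK3, a kinase activated by the ERK pathway. Its element stood at 32.1, 8.33, 7.71, 3.88 and 2.66 in IPC, lower at each later age. In NSC it stood at 2.66, 1.92, 2.60, 1.78 and 1.24. The lowest IPC value (E17) thus only matched the highest NSC value (E13), while within every age IPC was the higher, by 1.04 to 3.54 on the log2 scale. Mean activity was 2.76 ± 1.36 in IPC and 0.91 ± 0.43 in NSC (log2, SD over 5 ages).

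Afap1 encodes an adaptor that binds actin filaments and the kinase Src. The IPC values of its element were 21.5, 7.01, 2.31, 7.23 and 7.83, with the low point at E15. The NSC values were the most even of the 9, at 2.68, 2.18, 1.92, 1.44 and 1.62. IPC was the higher at all ages, by as little as 0.25 on the log2 scale at E15. The means were 2.74 ± 1.12 in IPC and 0.88 ± 0.34 in NSC (log2, SD over 5 ages).

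Ttc28 encodes a large protein with tetratricopeptide repeats. Its element gave 43.7, 9.75, 6.00, 1.45 and 5.02 in IPC from E13 to E17. In NSC it gave 1.26, 1.72, 4.60, 3.47 and 1.63. At E16 the order of the cell types turned over, with 336 of 976 scrambled controls at or above the IPC value and 68 of 985 at or above the NSC value. The mean was 2.73 ± 1.74 in IPC and 1.1 ± 0.76 in NSC (log2, SD over 5 ages).

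Ccdc13 encodes a coiled-coil protein of the centrosome region. In IPC the element stood at 40.2 at E13 and then between 3.63 and 5.33 at the 4 later ages. In NSC it stood at 0.374, 1.65, 2.29, 1.04 and 1.01. Every IPC value lay above every NSC value, and after E13 the IPC values were nearly level. The means were 2.67 ± 1.43 in IPC and 0.13 ± 0.88 in NSC (log2, SD over 5 ages), and the NSC mean was 0.46 without E13, -0.01 without E14 and -0.12 without E15.

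Seen over the 9 elements, all 45 IPC values lay above the scrambled median, highest in the median at E13 and lowest at E16. At E16 the IPC values ran from 1.45 to 7.23, and none of the 9 reached the level that the highest 2.5% of the scrambled controls exceeded there, 7.71. The median over the elements was 40.2, 8.33, 5.60, 3.16 and 5.02 in IPC from E13 to E17. The NSC medians were 1.26, 1.65, 2.29, 1.78 and 1.62, with single NSC values from 0.325 to 4.60. The highest NSC value of any of them, 4.60, was below the IPC median at each age but E16. Of the 9, 6 stood above the scrambled median in all 10 columns (Rps6ka2, Afap1, Sdc3, Kcng1, Ust and Ttc28), whereas the elements at Mmp24, Cacna1s and Ccdc13 fell below it in NSC at some ages. The elements were chosen with these values known, so this split is a description.

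The order of the 9 in IPC is not a firm one. Their IPC means ran from 2.67 (Ccdc13) to 3.07 (Kcng1), a range smaller than the SD over ages of any of them, 1.12 to 1.95, so no neighbours in this order differed beyond their spread. The set holds 7 of the 10 highest IPC means among the 901 E14 elements with a value in all IPC columns, and ranks 12 and 14. The E14 elements of ranks 3, 6 and 7, within Fbrsl1 (3.02), Efcab6 (2.85) and Dpysl5 (2.78), of rank 11, near Dusp4 (2.70), and of rank 13, within Slc39a11 (2.67), are not in the set although their IPC means are as high. The rule is a list of positions and sets no threshold between them. In NSC the same 9 elements ranked from 103 (Ttc28) to 783 (Mmp24) of 900.

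The difference between the cell types was largest at E13 and varied over the ages, which was not tested. IPC minus NSC on the log2 scale had a median over the 9 elements of 5.01, 2.35, 0.77, 1.08 and 1.82 from E13 to E17. At E13 it ran from 2.95 (Afap1) to 6.41 (Ccdc13), and at E14 from 1.64 to 3.40. All 9 elements were higher in IPC at E13, E14, E15 and E17, and 6 of 9 at E16. Over all E14 elements the difference at E13 had a median of 0.40, and at the later ages it had medians of -0.01 (E16) to 0.15 (E17). IPC was above NSC at all 5 ages for 6 of the 9, against 4.51% of all non-scrambled elements and 9.22% of the E14 class. Every IPC column was above every NSC column for 3 of the 9 (Mmp24, Ccdc13 and Ust), against 0.799% of all non-scrambled elements and 3.6% of the E14 class. The members were chosen with these values known, so nothing is read from these counts.

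E13 carries a large share of these values. The highest IPC value fell at E13 for 8 of the 9 elements, against 22% of all non-scrambled elements and 25.6% of the E14 class. The IPC column at E13 also has the widest upper tail of the IPC columns. The top 5% of E14 elements there began at a relative activity of 17.6, compared with 5.47, 5.97, 10.7 and 6.37 at the 4 later ages, and its highest scrambled control reached 461.9. A choice on means over ages favours elements that are high in such a column, and the part of this in the pattern was not tested. Without E13 the IPC means of the 9 were 2.04 to 2.39, and 7 of them ranked within the first 15 of 906 E14 elements. Ttc28 was at rank 22 and Ccdc13 at rank 25. The choice was made with the values of the later ages known too, so these ranks are a description. The IPC minus NSC difference without E13 fell from 2.58 to 1.62 for Cacna1s, from 2.54 to 1.58 for Ccdc13, from 2.02 to 1.27 for Sdc3 and from 1.64 to 0.79 for Ttc28. It was 2.44 for Mmp24, 1.59 for Afap1, 1.53 for Ust, 1.47 for Kcng1 and 1.43 for Rps6ka2. Among E14 elements Mmp24 then ranked 2 of 899 by this difference, and the other 8 ranked 35 to 197.

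The authors' own adjusted p sets an element against the scrambled sequences of the same column, upward only. By an adjusted p under 0.05 it called all 9 E14 elements in at least 3 of 5 IPC columns, where 5.09% of all non-scrambled elements, 15.3% of the E14 class and 1.21% of the scrambled controls were called. In at least 3 of 5 NSC columns it called 0 of the 9, where 4.72% of all non-scrambled elements and 9.1% of the E14 class were called. The elements at Mmp24, Cacna1s and Ccdc13 were called in all 5 IPC columns, as were 0.269% of all non-scrambled elements and 1.55% of the E14 class. The other 6 missed 1 column each. Afap1 missed at E15, Rps6ka2 at E17, and Sdc3, Kcng1, Ust and Ttc28 at E16. Of the 45 IPC values 39 were called, where 24.6% of the IPC values of the E14 class were. Of the 45 NSC values 9 were called, near the 19.2% of the E14 class. In single columns the same p also called 6.66% to 15.7% of the scrambled controls in IPC and 6.16% to 13.3% in NSC. At a limit that 2.5% of the scrambled controls exceed, 8 of the 9 passed in at least 3 IPC columns and the Ccdc13 element did not. Of all 10713 non-scrambled elements 68 passed in this way, and the share of the E14 class was not counted. These calls rest on the values that chose the elements and do not support them a second time.

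In IPC, 8 of the 9 elements stood lower at every later age than at E13, and NSC activity had no common direction with age. A linear fit to the 10 columns (limma, with a separate slope per cell type) gave a change per day in IPC of -0.89 ± 0.30 for Ttc28, -0.88 ± 0.36 for Cacna1s, -0.87 ± 0.31 for Kcng1 and -0.82 ± 0.21 for Rps6ka2 (log2 per day, SE of the fit). It was -0.79 ± 0.25 for Sdc3, -0.78 ± 0.28 for Ust, -0.67 ± 0.30 for Ccdc13 and -0.28 ± 0.27 for Afap1. Mmp24 alone had a positive estimate, 0.15 ± 0.34, with its high values at both ends of the series. In NSC the estimates ran from -0.22 (Rps6ka2) to 0.44 (Cacna1s), and 5 of 9 were above 0. With 1 slope for both cell types the estimate was negative for 8 of 9, from -0.52 ± 0.17 (Rps6ka2) to -0.22 ± 0.31 (Cacna1s), and 0.13 ± 0.23 for Mmp24. Without E13 that slope was 0.02 ± 0.23 for Afap1, 0.19 ± 0.32 for Cacna1s and -0.10 ± 0.28 for Kcng1, so their negative estimates rest on E13. It stayed negative for Rps6ka2 (-0.41 ± 0.20), Ttc28 (-0.27 ± 0.28), Ust (-0.24 ± 0.22), Ccdc13 (-0.19 ± 0.20) and Sdc3 (-0.13 ± 0.26), and only for Rps6ka2 and Ust was the estimate larger than its SE. For Mmp24 it was 0.29 ± 0.30. The separate IPC slopes were not fitted without E13, so how far they rest on that age was not tested. No p is given for the slopes of the E14 elements because they were chosen with these values known. E13 weighs heavily in their IPC means. Over all 9886 non-scrambled elements tested, 0 passed an adjusted p of 0.05 for the change per day (0%) in this limma fit, and 752 had an unadjusted p under 0.05.

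The profiles of the 9 resembled one another. Over the 36 pairs, Pearson's r across the 10 columns was 0.62 to 0.94 with a median of 0.85. Across the 8 columns without E13 it was 0.25 to 0.87 with a median of 0.65. Within a column all elements share the scrambled median and the samples, and the 9 were chosen for high IPC values, so this is a description only. The E14 element outside the set with the most similar profile (10 columns, 888 E14 elements compared with each) was near Utp11 for Sdc3 (r = 0.98), within Dpysl5 for Ust (0.97), near Gm42323 for Rps6ka2 (0.97) and within Ccdc162 for Afap1 (0.97). It was near Islr2 for Ccdc13 (0.96), within Phldb2 for Ttc28 (0.96), near Septin9 for Mmp24 (0.96) and within Ttbk1 for Kcng1 (0.96). The element within Dpysl5, a gene of growing axons, also had an IPC mean close to that of its match, 2.78 against 2.97 for Ust. Those near Islr2 (1.13) and Septin9 (1.29) shared the shape at a lower level.

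The Shadow elements of the same coordinates differed among themselves in IPC. Their IPC means (log2) were 1.28 at Kcng1, 1.20 at Afap1 and 1.02 at Sdc3, ranks 30, 37 and 63 of 858 Shadow elements. That at Ccdc13 had an IPC mean of 0.66 (rank 136), and those at Rps6ka2, Mmp24 and Cacna1s had 0.10, 0.09 and 0.02. In NSC the means ran from -0.53 (Mmp24) to 0.85 (Afap1). The sources used here do not say what sets a Shadow element apart from its E14 counterpart. By the authors' adjusted p, 0 of the 7 Shadow elements were called in at least 3 of 5 IPC columns and 0 in at least 3 of 5 NSC columns, where 4.36% and 1.78% of the Shadow class were called. Of the single values, 8 of 35 in IPC were called, where 14.2% of those of the Shadow class were. In NSC 2 of 35 were called, where 11.9% of those of the class were. In IPC the Shadow element at Cacna1s ran from 0.795 to 1.35 and that at Rps6ka2 from 0.820 to 1.45, so neither rose above 1.45 at any age, while their E14 counterparts stood at 2.66 or more throughout. In NSC the Shadow element at Cacna1s stood at 3.73 at E15, above its E14 counterpart (3.34), and this was one of the 2 NSC values called. At the other ages it ran from 0.453 to 1.65 in NSC.

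Several Shadow elements had single high columns. The Shadow element at Ccdc13 reached 13.7 in IPC at E13, the age at which its E14 counterpart reached 40.2, and then stayed between 0.683 and 1.20. That at Mmp24 stood at 4.95 in IPC at E15, where its E14 counterpart was at its lowest, and between 0.444 and 0.873 at the other ages. That at Afap1 stood at 11.4 in NSC at E13 and at 2.93 in IPC, the reverse of the order of its E14 counterpart, and it was the other NSC value called. In IPC the Shadow elements at Sdc3 (1.21 to 4.99), Kcng1 (1.92 to 3.39) and Afap1 (1.52 to 3.45) were above the scrambled median at all 5 ages, each with 2 columns called. At least 2 IPC columns were thus called for 3 of the 7, where 16.1% of the Shadow class were.

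The difference between the cell types was tested for the Shadow elements, with the 10 columns as observations and age as a covariate (limma, Benjamini-Hochberg adjustment over 9886 non-scrambled elements). The largest estimate of IPC minus NSC was 1.41 ± 0.44 (log2, SE) for the Shadow element at Kcng1, higher in IPC at 5 of 5 ages, with an unadjusted p of 0.00782 and an adjusted p of 0.61 by limma. It was 1.05 ± 0.63 at Ccdc13 (4 of 5 ages), 0.78 ± 0.49 at Sdc3 (5 of 5), 0.62 ± 0.71 at Mmp24 (3 of 5) and 0.34 ± 0.64 at Afap1 (3 of 5). It was -0.10 ± 0.42 at Rps6ka2 (IPC higher at 3 of 5 ages) and -0.20 ± 0.55 at Cacna1s (2 of 5). None of the 7 passed, with limma adjusted p of 0.61 to 0.98. Over all elements the same term called 0 (0%) and had an unadjusted p under 0.05 for 710. In simulated data of this size, with 50 changed elements per shift, a shift of 2 was called for 14% of them and a shift of 4 for 80%. Differences of the size seen for the Shadow elements would mostly be missed in that setting. Its noise was normal and independent between columns, whereas the real columns have long upper tails. The change per day of the 7 Shadow elements ran from -0.44 ± 0.22 (Ccdc13) to 0.20 ± 0.16 (Kcng1), and again none passed (limma adjusted p 0.67 to 0.98).

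Set against their Shadow counterparts, the E14 elements stood higher in the mean at all 7 loci, and by more in IPC than in NSC. In IPC the E14 minus Shadow difference was 3.0 ± 2.0 at Cacna1s, 2.66 ± 1.58 at Rps6ka2, 2.60 ± 2.34 at Mmp24 and 2.01 ± 0.33 at Ccdc13 (log2, SD over 5 ages). It was 1.84 ± 1.75 at Sdc3, 1.79 ± 1.70 at Kcng1 and 1.54 ± 0.97 at Afap1. The one at Ccdc13 was nearly constant over the ages, with both elements high at E13. In NSC the differences were 1.22 ± 0.92 at Kcng1, 0.71 ± 0.69 at Rps6ka2 and 0.03 to 0.60 at the other 5 loci. The E14 element was the higher in all 5 IPC columns at 5 of 7 loci and in all 5 NSC columns at 2 of 7 (Rps6ka2 and Kcng1). Over all pairs of equal coordinates, 11.8% had the E14 element higher in all 5 IPC columns and 11.5% in all 5 NSC columns, with median differences of 0.28 in IPC and 0.27 in NSC. The E14 member of each of the 7 pairs was chosen for a high value, so these differences are a description. Without E13 the difference at Sdc3 was 1.19.

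One other E14 element fell at these loci, within Afap1 and 17.1 kb from the first (chromosome 5, 35925174 to 35925439). It was not chosen by its values. Its relative activity ran from 1.07 to 20.7 in IPC with a median of 3.01, and from 1.22 to 2.37 in NSC with a median of 1.83. The authors' adjusted p called it in 3 of 5 IPC columns, as it did 15.3% of the E14 class in at least 3, and in 0 of 5 NSC columns, although IPC was above NSC at 3 of 5 ages only. Its Shadow counterpart, with a median of 0.683 in IPC and 0.958 in NSC, was called in 1 IPC column.

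E14 elements inside or nearest to known genes of the lineage, at any distance, give a scale for these levels. At 13 of 36 listed genes of intermediate progenitors and neurogenesis there were 19 E14 elements, and the authors' adjusted p called 5 of them in at least 3 IPC columns (15.3% of the E14 class) and 0 in at least 3 NSC columns (9.1% of the class). Their median IPC mean was 0.50 (log2), and that of the E14 class was 0.37. The 5 lay nearest to Sox11, a transcription factor of newborn neurons (2 elements, with IPC means of 2.51 and 2.19), to Plxna2, a semaphorin receptor (1.89), to Nhlh2, a helix-loop-helix factor (1.72), and to Neurod2, a neuronal helix-loop-helix factor (1.53). The first Sox11 element, 326.9 kb from the gene, was called in all 5 IPC columns. The second lay 495.8 kb from Sox11, and the Plxna2 element 309.1 kb from its gene. Those nearest to Nhlh2 and Neurod2 lay 7.84 and 7.93 kb away. The other 14 were not called in 3 IPC columns. Among them were the element 1.74 kb from Eomes, the gene of Tbr2 itself, with 0 columns called and an IPC mean of 0.34, that nearest to Gadd45g (-0.65) and one nearest to Tox3 (-0.66). The 9 elements had IPC means of 2.67 or more, but were chosen as high in IPC, so their place above those of the list follows from the choice. At 12 of 24 listed neural stem cell genes there were 20 E14 elements, with 3 called in at least 3 IPC columns and 3 in at least 3 NSC columns, against the same shares of 15.3% and 9.1% of the E14 class. These were elements within Pax6, within Hmga2 and 63.8 kb from Hes1, each called in both cell types. Their NSC means were 2.09, 2.42 and 1.38 and their IPC means 2.14, 1.20 and 1.50. None of the 9 elements had an NSC mean above 1.1.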

How the data were processed

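Reporter DNA and RNA from sorted NSC and IPC were measured in 48 libraries of 24 biological samples. The submitters' processing notes name cutadapt, with no version, and mm10. The sources used here give no aligner, barcode counting or filters. The authors deposited 3 kinds of value per column. The activity score, per the file headers and values, is linear and never negative. The authors' MAD score is that score minus the scrambled median over 1.4826 times the scrambled median absolute deviation (recomputed, largest difference 4.66e-12). The authors' p-value is the upper-tail normal p of the MAD score, Benjamini-Hochberg adjusted within the column (largest difference 6.11e-15).

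Ratios of each score to the scrambled median of the same column were formed, and log2(ratio + 0.1) minus log2(1 + 0.1) was used for means and for limma 3.58.1 in R 4.3.3. The limma fits used elements with all 10 values and terms for cell type and age in days, with p-values adjusted over all 9886 non-scrambled elements; they take ages as observations, since replicates were combined. The planned p for slopes of the E14 elements is not given, because their choice touched those values. The planned sequence features need a genome and were not analysed here. The script was tested on simulated data with 200 changed elements among 9886, 50 at each shift of 1, 2, 3 and 4. A shift of 1 was called in 0% of the 50 elements that had it, and 0.0516% of unchanged elements were called.

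Elements were assigned to the protein-coding gene whose span holds them or is nearest, and starts were taken from RefSeq's GRCm38.p6 tables, which are not complete. The members and the gene lists were chosen with earlier results of these data known. Named elements are the members, the most similar E14 profile to each (that for Cacna1s is not reported here), repeatedly called elements at the same loci, and the most often called elements of the lists; the 5 high elements outside the set, the 3 neural stem cell elements and the uncalled elements at Eomes, Gadd45g and Tox3 beyond that were picked after their values were seen. Depth is unknown.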

Additional observations from a re-analysis of the deposited data

Results flagged for a closer look

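At E16, 3 of the 9 E14 elements had an IPC minus NSC difference opposite in sign to that at their other 4 ages. The difference at E16 was -1.20 on the log2 scale for the element within Ttc28, -0.68 for that within Sdc3 and -0.13 for that near Kcng1. Each age is 1 combined value per cell type, so whether E16 differs from the other ages was not tested. At E16, 50.6% of all E14 elements had NSC above IPC, compared with 42.5% to 48.7% at the other ages. Without E16 all 9 elements were higher in IPC at every age, against 6 of 9 with it.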

How the results depend on the processing

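No paired analysis was possible because the table carries 1 combined value per cell type and age and no replicate numbers, so biological samples could not be paired. The columns of the 2 cell types were paired by age in the fit with age as a factor, where limma called 0 elements for IPC minus NSC and 697 had an unadjusted p under 0.05. No single replicate could be left out, and each age was left out instead. The median over the 9 E14 elements was 2.76 in IPC, 0.84 in NSC and 2.02 for IPC minus NSC as reported. With pseudocounts of 0.02 or 0.5, centring on the scrambled mean, or any 1 age left out, it ran from 2.31 to 3.23 in IPC. In NSC it ran from 0.68 to 0.94, and for IPC minus NSC from 1.53 to 2.63. Leaving out 1 of 5 ages can move a mean only by a part of its spread over ages, so these ranges are a description. On the authors' MAD score, which has another unit, the same 3 medians were 19.0, 1.54 and 17.3. The E14 minus Shadow medians (2.01 in IPC, 0.51 in NSC) were 16.8 and 1.02 on that score. IPC was above NSC at every age for 5 of the 9 on that score. Calls in at least 3 IPC columns covered 9 of the 9 at an adjusted p under 0.01, 8 above the level that 2.5% of scrambled controls exceed and 3 when all 5 columns were asked for. For all non-scrambled elements, 536 as reported became 357, 68 and 27. Of values larger than their error, the slope of the Afap1 element alone changed sign, to 0.024 without E13. Without E15 the E14 minus Shadow median in NSC was 0.31. The limma fits called 0 elements in every alternative run. The smallest limma adjusted p for any element and term among them was 0.11, for IPC minus NSC without E14. Fits with at least 8 of 10 values or with age as a factor changed no call.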
